A study of Homo sapiens with 21 samples.

Results

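Control samples of MCF10A, a non-tumorigenic line of human breast epithelium, were set against control samples of KLE, a line from an endometrial carcinoma. The comparison takes in 6 of the 21 BeadChip arrays of the series, chosen by their labels: the 3 MCF10A arrays labelled CTRL and the 3 KLE arrays labelled shCTRL. KLE shCTRL cells carry a control hairpin RNA, and the labels name no hairpin in the MCF10A samples. The other arrays are 3 of HCT116 CTRL, a colorectal carcinoma line that appears here as context, and 12 of KLE carrying hairpins against MSH3 or MSH6. The series as a whole asks what defects of mismatch repair do to the transcriptome. The contrast of these lines asks how a breast and an endometrial line differ before any repair gene is lowered. Each group is 1 line, so tissue of origin, tumour state, the control hairpin of KLE and the line itself cannot be told apart. Medium, passage and confluence are not given in the sources used here, so differences in culture cannot be told apart from differences between the lines either.

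Levels are given as log2(intensity + 16) after quantile normalization, and a difference is MCF10A minus KLE, so that a positive one means higher in MCF10A. Each gene is read by its brightest probe. Other probes, which may disagree, are given for some genes only. Values up to 7.04 were taken as background. Because background stays in the values, differences of dim genes are understated, and where 1 line lies at background the ratio is given as "at least", against that ceiling. All adjusted p-values are limma's, with Benjamini-Hochberg adjustment, and a gene passed the test with an adjusted p under 0.05. The labels do not say that replicates came from separate cultures, so p-values measure the spread between these samples, which may be technical, and 3 arrays a group limit the precision.

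Array medians of the 6 samples lay between 99.1 and 122 intensity units before normalization. Across all genes the MCF10A arrays correlated with one another at 0.991 to 0.997. In KLE, arrays 2 and 3 correlated at 0.996, while array 1 stood apart, with 0.977 and 0.978 against arrays 2 and 3. Some genes whose value depends on this array are marked below, and others that move without it are not. Array by array, MCF10A and KLE correlated at 0.866 to 0.896.

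MCF10A cells are widely used as a model of the basal layer of mammary epithelium. Basal cells of stratified and glandular epithelia build a cytoskeleton of KRT5 and KRT14, are anchored to the basement membrane by hemidesmosomes and laminin-332, and respond to ligands of the EGF receptor. Endometrial epithelium derives from the Mullerian duct, is a simple epithelium built on KRT8, KRT18 and KRT19, and keeps the transcription factors of its embryonic origin, among them PAX8, EMX2 and SOX17. Both tissues respond to steroid hormones through the oestrogen and progesterone receptors.

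Of 20046 genes, 3815 were higher in MCF10A (19% of those tested) and 3665 were lower (18.3%). Every count of a gene list below is to be set beside these shares. The difference was at least 2-fold for 915 higher genes (4.56%) and 925 lower genes (4.61%). The split was thus nearly even, and the median difference over all genes was 0.0037. In 23.4% of genes every MCF10A array was above every KLE array, and in 23.3% every one was below. Background accounted for much of the array: 7461 genes were at background in both lines, 1354 in KLE alone and 1576 in MCF10A alone. With KLE array 1 left out, 4204 genes were higher and 4040 lower.

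**Figure D1:**
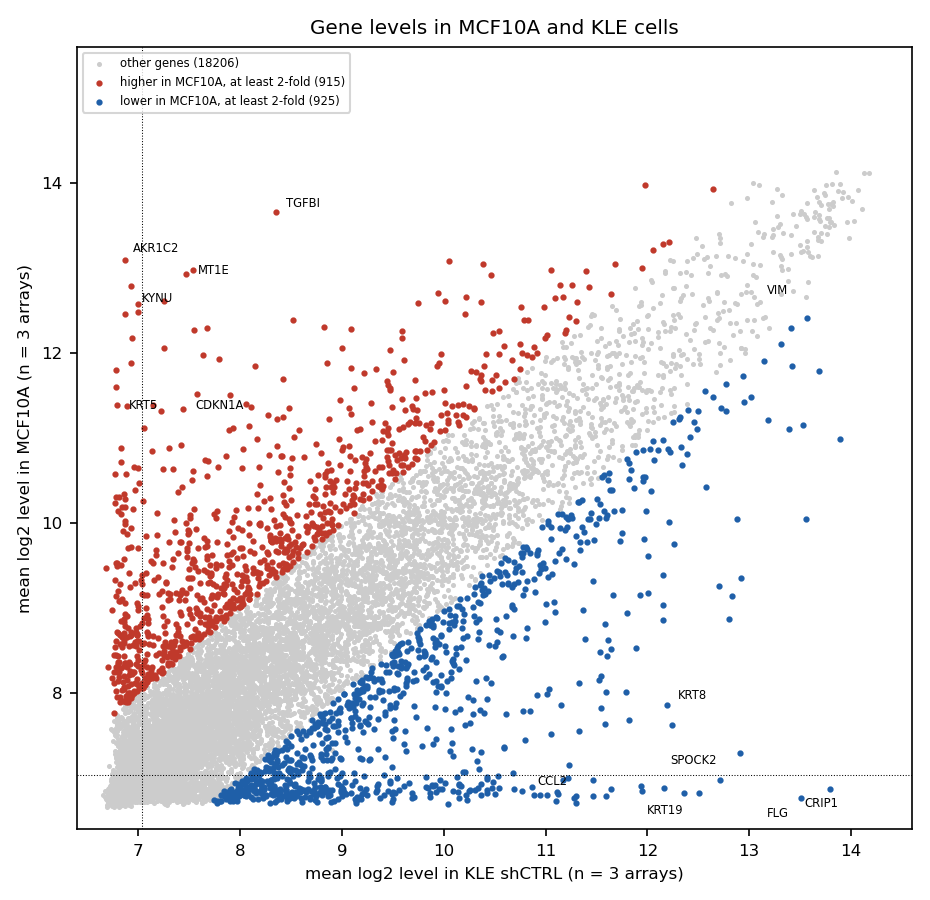
Mean log2 level of each gene in MCF10A (vertical axis) and in KLE shCTRL (horizontal axis), 3 arrays each, with genes past the test and at least 2-fold apart in colour and the background ceiling as dotted lines. AKR1C2, KYNU and KRT5 sit at background in KLE and CRIP1, FLG and KRT19 at background in MCF10A, while VIM lies on the diagonal.

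The gene with the largest positive difference was AKR1C2, an aldo-keto reductase that inactivates steroid hormones. Its levels were 13.10, 13.07 and 13.11 in MCF10A, against 6.83, 6.86 and 6.90 in KLE. The 3 KLE arrays were at background, so the level was at least 66.6-fold higher in MCF10A (difference 6.23, SE 0.044, adjusted p = 1.07e-11). Its neighbours in the same enzyme family behaved alike, with differences of 5.57 for AKR1C4 and 5.49 for AKR1C3. These genes are near-identical in sequence, and 5 other AKR1C2 probes differed by only 0.01 to 0.33, so which family member each bright probe read is uncertain.

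KYNU, an enzyme of tryptophan breakdown, had levels of 12.80, 12.90 and 12.68 in MCF10A and 6.93, 6.99 and 6.86 in KLE. That is at least 54-fold higher in MCF10A, and its second probe differed by 4.93. The calcium-binding alarmins S100A8 (difference 5.58) and S100A9 (5.36), which pair as calprotectin, followed. S100A9 measured 12.62, 12.44 and 12.77 in MCF10A, against 7.38, 7.21 and 7.17 in KLE. TGFBI, an extracellular matrix protein induced by TGF-beta, measured 13.82, 13.67 and 13.50 in MCF10A, against 8.54, 8.20 and 8.31 in KLE. Also among the 20 largest positive differences were FGFBP1, which releases fibroblast growth factors from the matrix (5.24), and ANGPTL4, a secreted inhibitor of lipoprotein lipase (5.03, with other probes at 0.79 and 1.47). RAC2, a small GTPase best known from blood cells, differed by 4.95, and DDIT4, a stress-induced inhibitor of mTORC1, by 4.61. PTGES, which makes prostaglandin E2 (4.35), and NNMT, which methylates nicotinamide (4.25), close that set. For LAD1, a basement membrane filament protein (4.81), 4 other probes were at background in both lines, so its difference rests on 1 probe.

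In HCT116 the means of AKR1C2 (6.88), KYNU (6.70) and TGFBI (7.01) were at background. MT1E was different, with a mean of 12.92 in MCF10A, 12.29 in HCT116 and 7.47 in KLE, so that KLE stood apart. UQCRHL, a retrocopy of the complex III subunit UQCRH, had the same pattern (12.97 in MCF10A, 13.11 in HCT116 and 7.54 in KLE). UQCRH itself differed by 2.61 by one probe and by 4.57 by another, and reads of such near-identical copies on 1 probe cannot be separated.

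CRIP1, a small LIM-domain protein, had the largest negative difference. Levels were 6.94, 6.82 and 6.86 in MCF10A, against 13.67, 13.91 and 13.82 in KLE, at least 109-fold lower in MCF10A (difference -6.92, SE 0.216, adjusted p = 2.56e-08). FLG, which encodes the epidermal protein filaggrin, was at background in MCF10A with 6.74, 6.83 and 6.72, against 13.62, 13.42 and 13.49 in KLE. FLG was thus not above background in the breast line, at least 89-fold lower than in the endometrial line. It was at background in HCT116 too (6.75), and the 12 KLE arrays with other hairpins gave 13.07 to 13.82.

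SPOCK2, a matrix proteoglycan, was at 7.02, 6.96 and 6.95 in MCF10A, against 12.94, 12.65 and 12.57 in KLE. In the KLE arrays with other hairpins SPOCK2 ran lower, down to 9.44, so its size depends on the KLE samples used. BEX1 (difference -5.67), the ubiquitin hydrolase UCHL1 (-5.04) and the tubulin TUBB2B (-4.68), genes best known from neurons, were at background in all MCF10A arrays by their brightest probes. A second BEX1 probe was above background in MCF10A (mean 7.61, against 9.56 in KLE) and differed by -1.96. At background in MCF10A by their brightest probes were also the branched-chain amino acid transaminase BCAT1 (-5.09), the matrix protein SPON1 (-5.29), kidney cadherin CDH6 (-4.81) and the fibrillar collagen COL11A1 (-4.37). LGALS14, a galectin of the placenta, differed by -4.77 by 1 probe, while its other probe was not called (-0.047), and CCL2, the chemokine that attracts monocytes, by -4.51. PODXL, an apical sialomucin (-4.62), and SSPN, a membrane partner of dystroglycan (-4.59), complete this set with genes described below. SNAR-A1, a small non-coding RNA gene, rests on uneven KLE arrays: 7.43, 7.19 and 7.27 in MCF10A, against 11.25, 13.76 and 13.72 in KLE. Its difference was -5.62 with all arrays and -6.45 without KLE array 1.

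**Figure D2:**
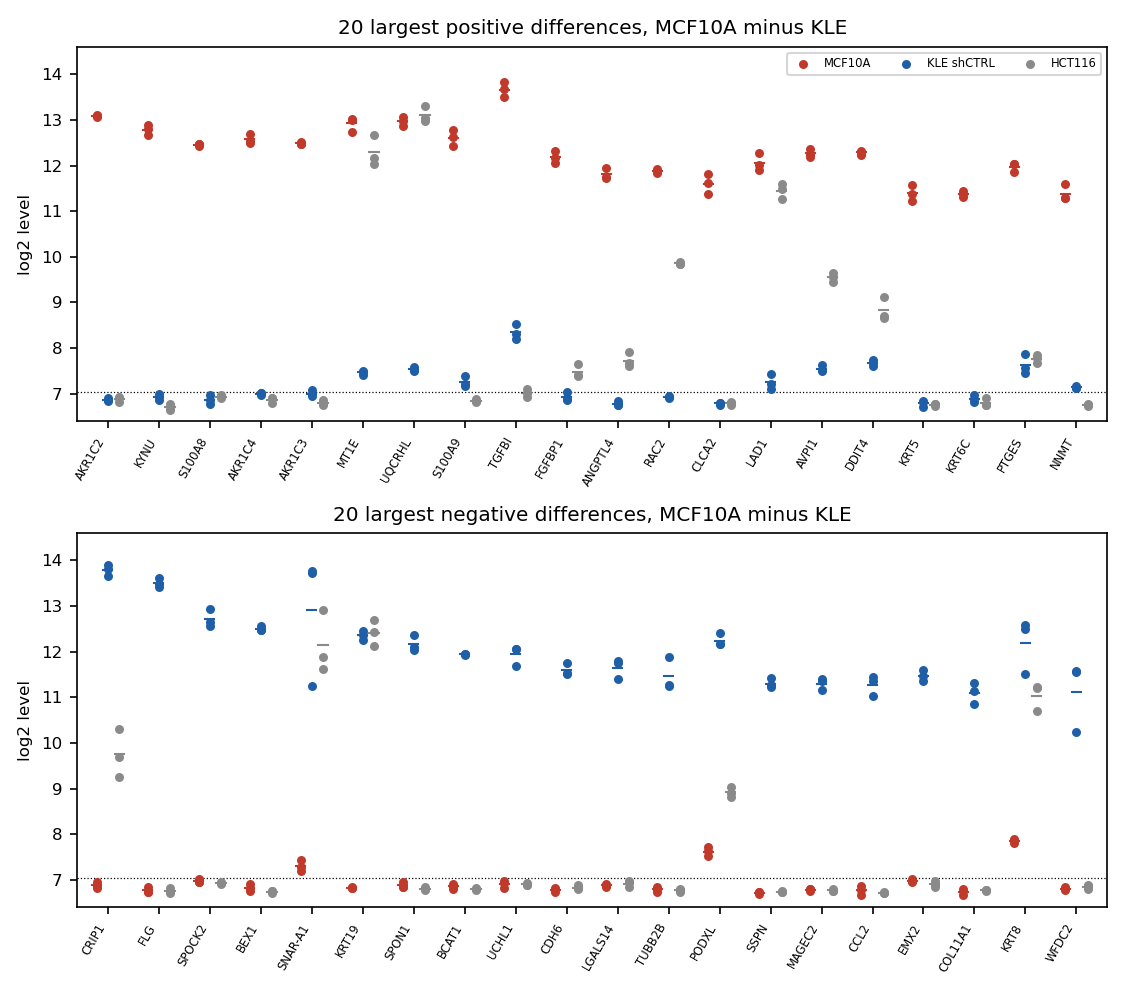
Log2 level on each array for the 20 largest positive (upper) and 20 largest negative (lower) differences past the test without overlap, with MCF10A left, KLE shCTRL in the middle and HCT116 right (3 points and their mean as a bar; dotted line, background ceiling). KLE arrays of SNAR-A1, KRT8 and WFDC2 spread widely, with array 1 the lowest, while those of AKR1C2 and BCAT1 lie on top of each other.

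Several keratins of basal epithelium were higher in MCF10A and several of simple epithelium lower, with exceptions in both lists. KRT5 had levels of 11.58, 11.22 and 11.37 in MCF10A and 6.82, 6.84 and 6.70 in KLE, at least 20.5-fold higher in MCF10A (difference 4.61, SE 0.084, adjusted p = 9.89e-10). KRT14, its partner, measured 10.65, 10.73 and 10.79 in MCF10A, against 6.91, 6.79 and 6.79 in KLE. Both were at background in every KLE array, as they were in HCT116. The activation keratins KRT16 (difference 3.34) and KRT6C (4.48) and the basal KRT15 (1.45) were also higher, although the KRT6C probe may read its near-identical relatives. In all, 5 of 11 measured keratins of basal and stratified epithelium were higher and 1 lower. The median of that list was 0.006, and 4 of its members were at background in both lines. KRT17 and TP63, further basal markers, were not analysed here.

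Of 7 measured keratins of simple epithelium, 4 were lower in MCF10A, 1 was higher and 2 were not called, with a median of -1.36. KRT19 was at 6.82, 6.81 and 6.83 in MCF10A, against 12.25, 12.37 and 12.45 in KLE, at least 39.9-fold lower in MCF10A. KRT8 measured 7.90, 7.80 and 7.86 in MCF10A and 11.52, 12.58 and 12.50 in KLE (difference -4.34, SE 0.259, adjusted p = 1.63e-06). No MCF10A array reached the lowest KLE array for either gene. KRT80 (-2.99) and KRT23 (-1.36) were lower as well. KRT7, in contrast, was at 11.29, 11.30 and 11.37 in MCF10A and at 7.17, 7.36 and 7.14 in KLE. KRT18, the usual partner of KRT8, lay close to background in both lines (mean 7.43 in MCF10A and 7.51 in KLE, adjusted p = 0.346). A second KRT18 probe was lower (-0.21, adjusted p = 0.0315), and with the 12 other KLE arrays the difference of the first was -0.41 (adjusted p = 0.0107).

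Anchorage to the basement membrane was a second difference. Of 14 measured genes of hemidesmosomes, laminin-332 and matrix adhesion, 7 were higher and 1 was lower. DST, whose epithelial form is the hemidesmosomal plaque protein BPAG1, had levels of 10.27, 10.50 and 10.40 in MCF10A and 7.0, 6.96 and 6.95 in KLE. Its 5 other probes differed by -0.19 to 3.08. Those at -0.19 and 0.004 were at background in MCF10A, and those at 1.34, 1.81 and 3.08 were above it. The laminin receptor subunit ITGA6 measured 10.77, 10.87 and 10.71 in MCF10A, against 8.02, 7.84 and 7.74 in KLE, with another probe at 2.03. LAMB3, the beta chain of laminin-332, differed by 2.48, with other probes at 0.31 and 0.18. The collagen receptor subunits ITGA2 and ITGB1 differed by 1.90 and 1.57. LAMC1, the gamma chain of more widespread laminins, was the lower one (-1.11).

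Desmosomes followed, with 6 of 13 measured genes higher and 1 lower (46.2% and 7.7%, against 19% and 18.3% of all genes). PERP, a desmosomal membrane protein and p53 target, measured 13.12, 13.14 and 12.91 in MCF10A and 10.61, 10.15 and 10.41 in KLE. The basal cadherins DSG3 (2.46) and DSC3 (1.36) were higher, while DSC2 was lower (-0.70). Adherens and tight junction genes were mixed, with 12 of 33 higher and 6 lower (36.4% and 18.2%). E-cadherin, CDH1, had nearly the same level in both lines, at 10.36, 10.36 and 9.98 in MCF10A and 10.54, 10.48 and 10.54 in KLE. Its difference of -0.28 missed the threshold (SE 0.129, adjusted p = 0.136). EPCAM was lower (-1.47), as were the tight junction genes CGN (-2.61) and CLDN3 (-1.72), while CLDN7 (1.48) and the membrane proteases PRSS8 (1.80) and ST14 (1.20) were higher.

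Regulators and markers of basal epithelium were more often higher than lower. Of 20 measured genes of basal and stem-like mammary epithelium, 11 were higher and 6 lower, with a median of 0.56. These shares, 55% and 30%, compare with 19% and 18.3% of all genes. SOX15 stood at 10.57, 10.46 and 10.72 in MCF10A and 6.93, 6.90 and 6.81 in KLE. SNAI2, the Slug repressor that marks basal mammary cells, measured 10.22, 10.51 and 10.21 in MCF10A, against 6.78, 6.84 and 6.80 in KLE. TFAP2C (2.68), TFAP2A (2.27), BNC1 (1.77) and KLF5 (1.73) were higher too. Other probes differed by -0.11 to 1.43 for TFAP2A and by 0.04 to 1.61 for BNC1. Furthest the other way were the contractile genes ACTA2 (-3.57) and MYLK (-1.85) and ID4, an inhibitor of differentiation factors (-2.92). SOX9 (-0.54), OXTR (-0.35) and NGFR (-0.30) were lower by less, and each call was lost under some settings. Luminal mammary genes showed no common direction, with 6 of 24 higher, 5 lower and 12 at background in both lines. MUC1 was the largest of them (2.55), and GATA3 (0.36) and FOXA1 (0.78) were higher by less. GATA3 was at 7.19, 7.21 and 7.21 in MCF10A, just over the ceiling, and at background in KLE.

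**Figure D3:**
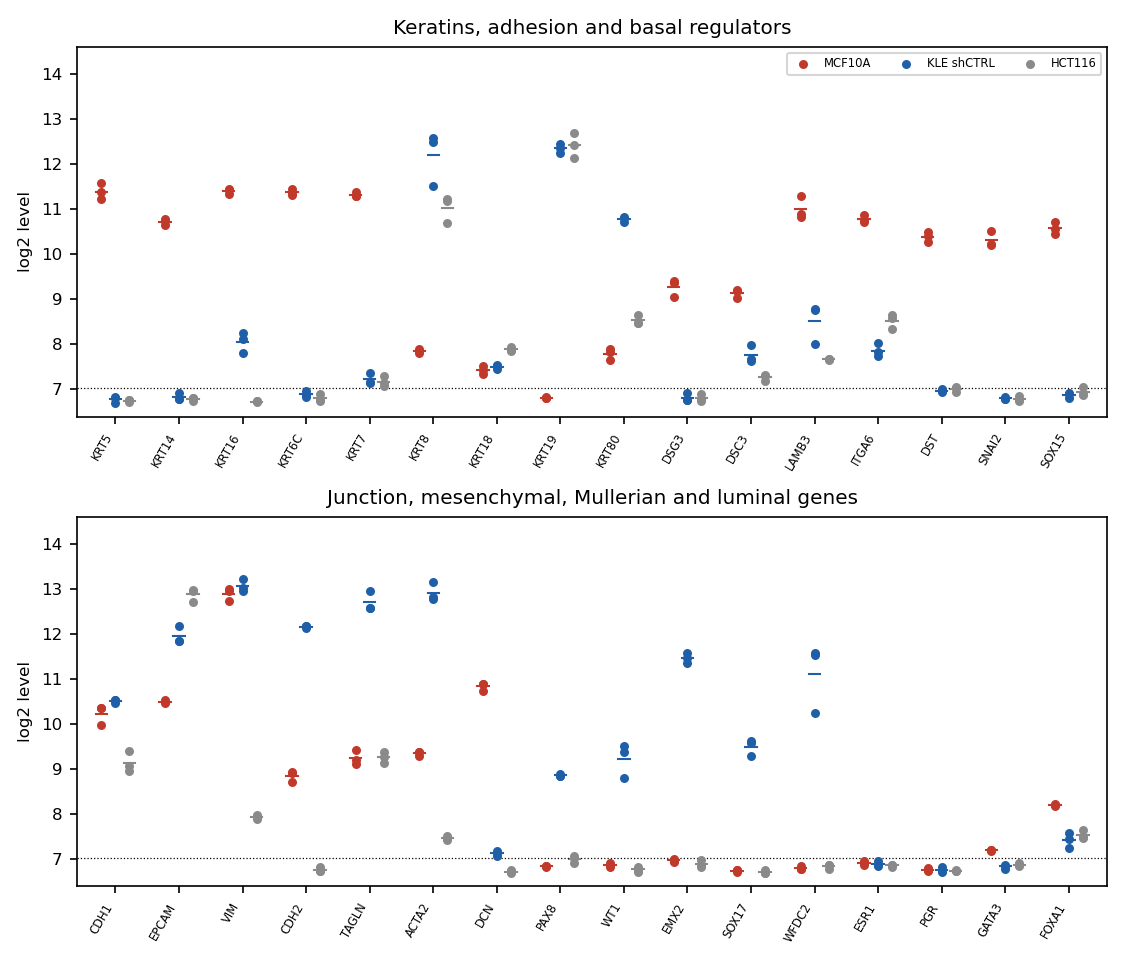
Log2 level on each array for keratins, adhesion genes and basal regulators (upper) and for junction, mesenchymal, Mullerian and luminal genes (lower), with MCF10A left, KLE shCTRL in the middle and HCT116 right (3 points and their mean as a bar; dotted line, background ceiling). KRT5, KRT14, DSG3, SNAI2 and SOX15 are above background by their means in MCF10A alone, and PAX8, WT1, EMX2, SOX17 and WFDC2 in KLE alone. Mullerian genes that were higher in MCF10A are not shown.

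Of 26 measured Mullerian and endometrial genes 11 were lower in MCF10A (42.3%, against 18.3% of all genes), 4 were higher and 8 were at background in both lines, with a median of -0.05. EMX2, a homeobox gene needed to form the uterus, had levels of 6.95, 7.02 and 6.97 in MCF10A and 11.59, 11.47 and 11.35 in KLE. WFDC2, which encodes the tumour marker HE4, measured 6.84, 6.79 and 6.79 in MCF10A, against 10.25, 11.58 and 11.54 in KLE. PAX8 was at 6.85, 6.83 and 6.85 in MCF10A and 8.84, 8.90 and 8.86 in KLE. All MCF10A values of these genes were at background. SOX17 (difference -2.75), WT1 (-2.36) and GPX3 (-2.53) had the same pattern. HSD17B2, which oxidises oestradiol and is induced by progesterone in endometrium, was among the 4 higher ones: 9.42, 9.63 and 9.54 in MCF10A, against 6.80, 6.81 and 6.77 in KLE. The others were OVGP1 (0.89), FOXA2 (0.40) and MSLN (0.79, a call lost under some settings).

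Hormone receptors of either tissue were at background. ESR1 measured 6.88, 6.96 and 6.92 in MCF10A and 6.87, 6.84 and 6.96 in KLE, and PGR lay at 6.74 to 6.84 over all 6 arrays. Of 40 measured nuclear receptors 7 were higher, 4 lower and 21 at background in both lines. The glucocorticoid receptor NR3C1 was higher by 0.74, and PPARG, a receptor for fatty acids, by 1.34. Other probes differed by -0.02 and 0.02 for NR3C1 and by -0.08 to 0.58 for PPARG. Of 29 positional genes of the HOX clusters 4 were higher and 5 lower (13.8% and 17.2%, against 19% and 18.3% of all genes), and 13 were at background in both lines. HOXC8 was higher (1.38), while HOXC4 (-1.44), HOXB7 (-1.42) and HOXD1 (-1.08) were lower. HOXA10 and HOXA11 were not analysed here.

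Mesenchymal genes did not fall on 1 side. VIM was far above background in both lines, at 12.95, 12.99 and 12.73 in MCF10A and 12.96, 13.22 and 13.03 in KLE (difference -0.18, SE 0.085, adjusted p = 0.156). A second VIM probe was lower (-0.25, adjusted p = 0.00298), and the first passed as lower with the 12 other KLE arrays (-0.42) and with median scaling (-0.33). In HCT116 its mean was 7.95. N-cadherin, CDH2, was lower in MCF10A, with 8.72, 8.91 and 8.95, against 12.13, 12.17 and 12.18 in KLE. The contractile protein genes TAGLN (-3.44) and ACTA2 (-3.57), SPARC (-3.11) and the collagens COL5A2 (-2.74) and COL6A1 (-2.15) were lower too. Against them stood DCN, the matrix proteoglycan decorin, with 10.90, 10.74 and 10.90 in MCF10A and 7.18, 7.14 and 7.08 in KLE, and the fibroblast protease FAP (1.94). Of 37 measured genes 15 were lower and 7 higher. ZEB1 was at background in both lines.

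Genes of squamous differentiation were split. The cornified envelope list had 12 of 33 genes higher and 9 lower, with a median of -0.03. TGM1, the transglutaminase that cross-links the envelope, was higher at 10.84, 10.73 and 10.34 in MCF10A, against 7.34, 7.19 and 7.18 in KLE. CSTA (1.64) and SPRR1A (1.10) were higher, while the kallikreins KLK11 (-2.81), KLK6 (-1.70) and KLK5 (-1.18) and the protease inhibitor PI3 (-1.48) were lower along with FLG. The S100 family leaned to MCF10A with 12 of 19 higher and 3 lower (median 1.06). Beyond S100A8 and S100A9, S100A7 (3.81), S100A14 (2.94) and S100A2 (2.85) were higher, and S100A1 was lower (-2.08, and -2.67 without KLE array 1). Clade B serpins had 6 of 11 higher (54.5%, against 19% of all genes) and 0 lower by limma, with 1 lower at an unadjusted p under 0.05. SERPINB5, the mammary serpin maspin, measured 11.94, 12.06 and 11.78 in MCF10A and 7.71, 7.82 and 7.83 in KLE.

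Genes induced by p53 leaned to MCF10A, with 21 of 29 measured members higher and 2 lower (72.4% higher, against 19% of all genes) and a median of 0.86. As background, MCF10A is known to keep wild-type p53 and KLE to carry a mutated one. CDKN1A, the cell cycle inhibitor p21, had levels of 11.46, 11.40 and 11.17 in MCF10A and 7.31, 7.61 and 7.38 in KLE, a 15-fold difference (3.91, SE 0.114, adjusted p = 1.7e-08). A second CDKN1A probe was at background in both lines. SFN, the checkpoint protein 14-3-3 sigma, measured 10.19, 10.11 and 10.47 in MCF10A, against 6.91, 7.11 and 7.11 in KLE. RRM2B, a ribonucleotide reductase subunit for DNA repair, stood at 9.51, 9.68 and 9.47 in MCF10A and 7.26, 6.98 and 7.13 in KLE. None of these groups overlapped. AEN (1.78), the death receptor TNFRSF10B (1.60), PHLDA3 (1.60) and DDB2 (0.88) were higher too, and MDM2 by 0.23. PLK2 was lower (-1.21). ZMAT3 was lower by its brightest probe (-1.16), but its 2 other probes were higher by 1.43 and 1.95, so its direction depends on the probe.

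In HCT116, which has wild-type p53 as background, CDKN1A had a mean of 10.41 and SFN of 9.56, between the other lines but nearer to MCF10A. Comparisons of MCF10A with KLE and with HCT116 share the MCF10A arrays. Side by side, CDKN1A differed by 3.91 from KLE and by 0.93 from HCT116, SFN by 3.22 and 0.70, and RRM2B by 2.43 and 1.17. Other members of the list are not given for HCT116. Whether p53 status bears on these levels was not tested, and it cannot be told apart from the line itself.

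The 9p21 locus carries the inhibitors CDKN2A and CDKN2B and the neighbouring enzyme gene MTAP, and MCF10A is known to have lost this segment. CDKN2A measured 6.91, 6.97 and 6.76 in MCF10A and 9.56, 9.06 and 8.93 in KLE. It was at background in all MCF10A arrays, at least 4.43-fold lower, and a second probe differed by -1.86. MTAP was at 7.04, 6.88 and 6.91 in MCF10A, against 8.05, 7.97 and 7.83 in KLE and a mean of 10.57 in HCT116. CDKN2B, at 6.93, 6.78 and 6.88 in MCF10A, was hardly above background in KLE with 7.27, 7.35 and 7.23.

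Of the cyclins and their partners, CCND2 (2.56), CCND3 (2.13) and CCND1 (1.44) were higher and CCNE1 was lower (-1.70). MYC measured 12.74, 12.88 and 12.48 in MCF10A, against 10.08, 9.80 and 9.97 in KLE. Its second probe differed by 3.20, and no MCF10A array came near the KLE range. Genes of S phase had a median near 0, while those of mitosis were more often lower than higher. Of 43 measured E2F targets and replication genes 11 were higher and 8 lower (median 0.07). These shares, 25.6% and 18.6%, compare with 19% and 18.3% of all genes. Of 43 genes of G2 and mitosis 8 were higher and 18 lower (18.6% and 41.9%, median -0.19), among them CDCA8 (-1.45), KIF4A (-1.13) and TPX2 (-1.07). UBE2C, a ubiquitin-conjugating enzyme of mitotic exit, stood against these with 10.42, 10.16 and 10.84 in MCF10A and 6.94, 7.01 and 7.07 in KLE. A second UBE2C probe differed by only 0.17, which did not pass the test.

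Targets of the glucocorticoid receptor had the highest share of higher genes among the 43 lists, with 16 of 21 measured members higher (76.2%), 1 lower and a median of 1.58. SGK1, a kinase that controls sodium transport, had levels of 10.79, 10.98 and 10.44 in MCF10A and 7.83, 7.64 and 7.59 in KLE. FKBP5, the chaperone that feeds back on the receptor, measured 11.88, 11.98 and 11.63 in MCF10A, against 9.03, 9.16 and 9.06 in KLE. The arrays of the lines lay far apart for both genes. ZBTB16 (1.67), KLF9 (1.70), the phosphatase gene DUSP1 (1.59) and the transcription factor TFCP2L1 (1.80) were higher as well. The metallothioneins MT1E and MT2A, which also respond to zinc and cadmium, differed by 5.46 and 2.0. MT2A rests on uneven KLE arrays, with 13.98, 13.96 and 13.98 in MCF10A and 11.23, 12.34 and 12.35 in KLE. CRISPLD2 was the member that was lower (-0.56). As background, media for MCF10A usually contain hydrocortisone, and the medium of these samples is not given in the sources used here.

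Enzymes of the NRF2 pathway, which detoxify reactive compounds and supply glutathione and NADPH, were higher in 17 of 30 and lower in 7, with a median of 0.39. NQO1 measured 11.81, 11.86 and 11.75 in MCF10A and 9.52, 9.31 and 9.18 in KLE. ALDH3A1, an aldehyde dehydrogenase, was at 10.74, 10.51 and 10.74 in MCF10A, against 7.77, 7.78 and 7.78 in KLE. GCLC (1.90), which starts glutathione synthesis, the exporter ABCC3 (2.37) and the pentose phosphate enzyme TKT (2.46) were higher too. TXNRD1 (-1.47), EPHX1 (-1.48) and GSTM1 (-2.24) were lower, so the list had no single direction, and HMOX1 was lower by a small amount (-0.34), a call lost without MCF10A array 2 (-0.33, adjusted p = 0.0626) or 3 (-0.31, adjusted p = 0.0623).

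Among glycolysis and hypoxia genes 20 of 38 were higher and 9 lower, with a median of 0.33. NDRG1 had levels of 10.78, 10.95 and 10.22 in MCF10A and 7.09, 6.95 and 6.95 in KLE. CA12, a carbonic anhydrase, measured 10.40, 10.35 and 10.28 in MCF10A and was at background in KLE with 6.88, 6.83 and 6.85. HK1 (2.25, with other probes at -0.02 to 0.55), ADM (2.69), PFKP (1.89) and LDHA (0.96) were also higher. GPI, the second enzyme of glycolysis, was lower, at 9.84, 9.92 and 9.87 in MCF10A, against 11.59, 11.84 and 11.83 in KLE. PKM showed what KLE array 1 can do: 10.17, 10.11 and 10.15 in MCF10A, against 10.22, 12.25 and 12.26 in KLE. Its difference was -1.44 with all arrays (adjusted p = 0.0399) and -2.11 without that array.

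Respiratory chain subunits had 15 of 56 lower and 7 higher (median -0.15). These shares, 26.8% and 12.5%, compare with 18.3% and 19% of all genes. COX6B1, a subunit of cytochrome oxidase, was at 11.14, 10.99 and 11.32 in MCF10A and 13.42, 13.61 and 13.56 in KLE. COX7B was lower too (-1.37), while the complex III subunits UQCRH (2.61, with its other probe at 4.57) and UQCRC1 (1.03) were higher. NDUFA3 rests on uneven KLE arrays, with 9.71, 9.18 and 9.77 in MCF10A, against 9.96, 11.55 and 11.76 in KLE. Its difference was -1.54 with all arrays (adjusted p = 0.0279) and -2.10 without KLE array 1, and it missed the threshold when any 1 of the other 5 arrays was left out (adjusted p = 0.0513 to 0.103). In lipid synthesis 14 of 29 genes were higher and 6 lower, led by ACSS2 (1.58) and FASN (1.20), with FADS1, which desaturates fatty acids, lower (-2.01). Of 34 genes of the unfolded protein and ATF4 responses 14 were higher and 7 lower. They include the amino acid transporters SLC7A5 (2.43) and SLC3A2 (1.69), which form 1 complex, and the pseudokinase TRIB3 (2.49). CBS, the enzyme that starts transsulfuration of homocysteine, was lower, with 7.06, 7.01 and 7.0 in MCF10A and 10.70, 10.46 and 10.43 in KLE. Cytosolic ribosomal proteins had 19 of 68 higher and 11 lower. Their median of 0.11 turned to -0.15 when arrays were left as deposited, so no direction is given for them.

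Signalling systems differed in which branch was higher. In the EGF receptor list 11 of 26 genes were higher and 6 lower. EGFR measured 9.61, 9.51 and 9.65 in MCF10A and 7.84, 7.99 and 8.09 in KLE, with other probes at 0.87, 0.34 and 0.04. The ligands TGFA (1.53) and HBEGF (1.5) and the induced genes PHLDA1 (3.09) and ERRFI1 (1.58) were higher, while the ligand NRG1 (-1.43) and the inhibitor SPRY1 (-0.83) were lower. Other NRG1 probes differed by only -0.66 to 0.05.

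Insulin-like growth factor binding proteins were on the other side. IGFBP3, the main carrier of these factors in serum, was at 6.95, 6.96 and 7.02 in MCF10A and 11.33, 11.11 and 11.07 in KLE, at least 17.6-fold lower in MCF10A. IGFBP2 (-3.52), IGFBP5 (-3.08) and IGFBP7 (-2.16) were lower as well. IGFBP4 measured 6.85, 6.77 and 6.84 in MCF10A, against 9.26, 11.09 and 10.92 in KLE, a difference of -3.60 that became -4.18 without KLE array 1. IGFBP6 was higher (0.74). Of the 15 measured genes of this axis 6 were lower and 4 higher.

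The BMP list had 16 of 29 genes lower and 4 higher, with a median of -0.55. These shares, 55.2% and 13.8%, compare with 18.3% and 19% of all genes. BMP7, a ligand, measured 6.90, 6.82 and 6.87 in MCF10A, against 10.02, 9.33 and 9.32 in KLE. The ID genes, which BMP signals induce and which block differentiation factors, were lower together. ID3 was at 9.19, 8.75 and 9.58 in MCF10A and 11.5, 12.14 and 12.38 in KLE, and ID2 (-2.83), ID4 (-2.92) and ID1 (-0.89) were lower too. So were the inhibitor SMAD6 (-2.54) and the antagonist GREM1 (-2.38). GDF15, also a p53 target, was higher (1.18).

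TGF-beta and YAP responsive genes divided, with 12 of 24 higher and 7 lower. The type II receptor TGFBR2 stood at 12.02, 11.91 and 11.70 in MCF10A, against 9.16, 8.70 and 8.69 in KLE, and PMEPA1 (2.79) and THBS1 (1.89) were higher with TGFBI. The YAP targets CCN2 (-3.51), ANKRD1 (-3.43) and CCN1 (-2.02) were lower, but F3, also on this list, was higher (2.51, with another probe at 1.81). YAP1 itself was higher (0.73), while WWTR1 of the same list was lower (-1.39 to -0.62 over the settings tried). AJUBA was also lower by its brightest probe (-1.65), with other probes at -0.03 and 0.03. CCN2 measured 10.12, 10.07 and 9.97 in MCF10A and 13.97, 13.41 and 13.30 in KLE. In the Notch list 10 of 22 genes were lower and 4 higher. JAG2 (1.92) and NOTCH1 (1.54) were higher and DLL3 was lower, at 7.41, 7.39 and 7.75 in MCF10A, against 10.73, 11.19 and 11.24 in KLE. WNT genes had 9 of 48 higher, a share near that of all genes, and 12 lower. The secreted antagonists DKK1 (3.19) and SFRP1 (2.35) were higher, and the ligand WNT10A was lower (-2.67). Of 28 plasminogen activator and metalloproteinase genes 9 were higher, with urokinase PLAU at 2.26, and 6 lower, with ADAMTS1 at -2.39.

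**Figure D4:**
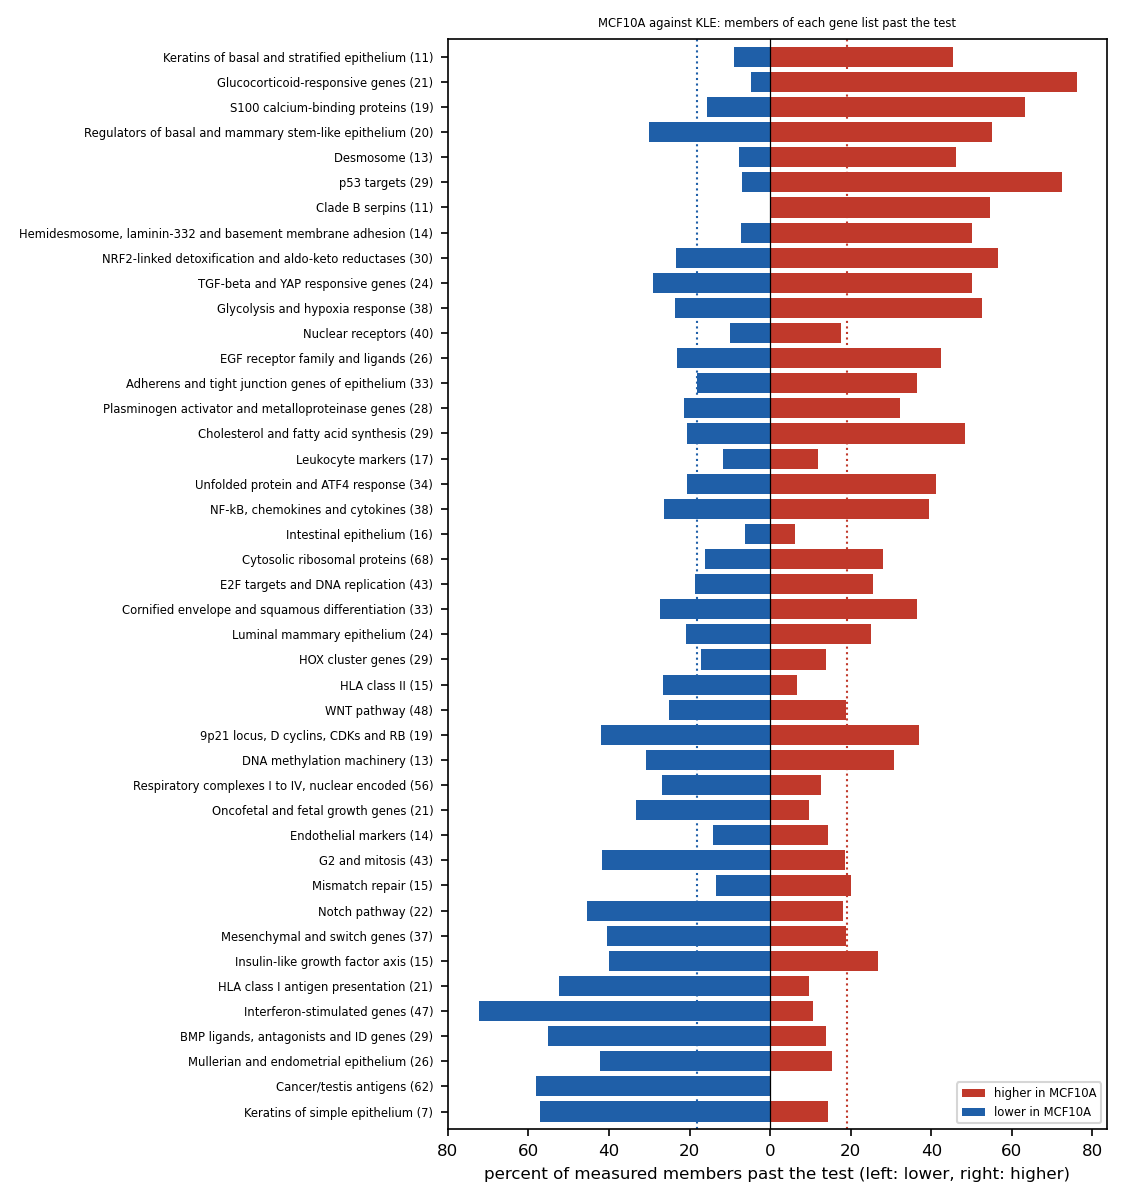
Percent of measured members of each gene list that were higher (right) or lower (left) in MCF10A past the test, with the number measured in parentheses, ordered by the median difference of members above background; dotted lines mark 19% and 18.3%, the shares among all genes. Glucocorticoid-responsive genes and p53 targets reach furthest to the right, and interferon-stimulated genes and cancer/testis antigens furthest to the left.

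Interferon-stimulated genes were lower in MCF10A in 34 of 47 cases (72.3%, against 18.3% of all genes) and higher in 5, with a median of -0.72. These genes encode antiviral proteins and are switched on by interferon through an element with repeated GAAA in their promoters. ISG15, a ubiquitin-like modifier, had levels of 7.18, 7.18 and 7.12 in MCF10A and 10.92, 11.41 and 11.37 in KLE, 16.8-fold lower in MCF10A (difference -4.07, SE 0.228, adjusted p = 1.09e-06). IFI27, a mitochondrial protein, measured 6.84, 6.83 and 6.86 in MCF10A, against 10.24, 11.01 and 11.06 in KLE. HERC5, the ligase that attaches ISG15, stood at 6.75, 6.78 and 6.88 in MCF10A and 10.47, 10.37 and 10.27 in KLE. MX1, a GTPase that blocks influenza virus, was at 6.84, 6.84 and 6.88 in MCF10A, against 10.47, 10.21 and 10.10 in KLE. No MCF10A array came within reach of a KLE array for these genes, and IFI27, HERC5 and MX1 were at background in MCF10A.

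IFITM1, which bars viral entry, differed by -3.23, IFI6 by -2.99, IFI44 by -2.37 and IRF9, which carries the interferon signal to DNA, by -2.08. The genes that were higher were TRIM22 (0.73), IRF7 (0.55), GBP2 (0.52), OAS1 (0.38) and IFIT5 (0.29). HCT116 shared low levels of IFI27 (6.86), MX1 (6.84) and IFITM1 (6.97) but not of HERC5 (8.47), and MCF10A differed from HCT116 by -2.84 for ISG15. Levels in KLE were not fixed either: over the 12 arrays with other hairpins IFI27 ran from 7.25 to 12.28 and MX1 from 7.55 to 11.61. With those arrays in place of shCTRL the difference was -3.44 for ISG15, -2.96 for IFI27 and -2.86 for MX1.

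**Figure D5:**
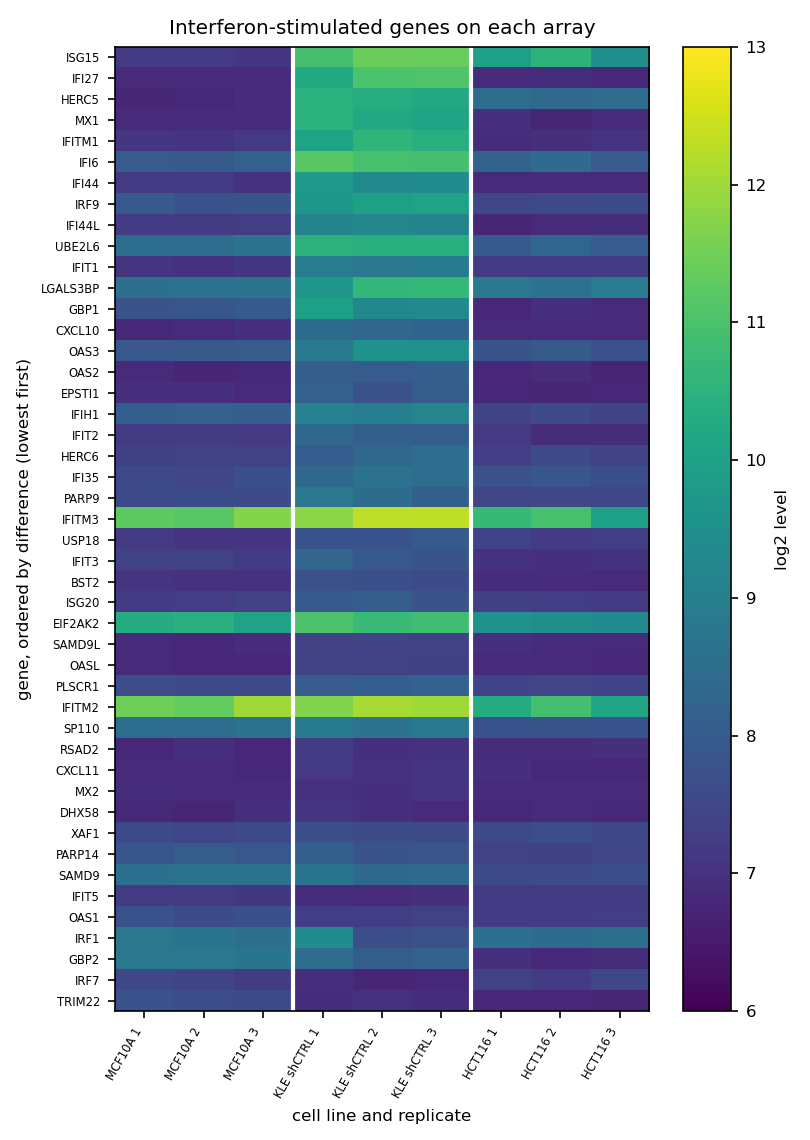
Log2 level of each interferon-stimulated gene above background in at least 1 of the lines compared, on each array of MCF10A, KLE shCTRL and HCT116 (colour, log2 level), ordered from the lowest difference down. The rows from ISG15 to IFI6 are darker in MCF10A than in KLE, and the last row, TRIM22, is brighter in MCF10A.

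Promoters of interferon-stimulated genes with large negative differences illustrate this element, searched as GAAANNGAAA on either strand (TTTCNNTTTC on the other). The 6 lowest (ISG15, IFI27, HERC5, MX1, IFITM1 and IFI6) were each read at the first annotated start with a match in the 250 bases before it. MX1 did not qualify, and any further starts of it were not checked. Shown are the 5 genes with a match within 100 bases before the start read, so they were chosen for the match. Their 250 bases before the start follow from RefSeq on GRCh38.p14, each 5′ to 3′ on the gene's strand, with every match in capitals and overlapping matches joined.
ISG15 (chr1:1013247-1013496, plus strand): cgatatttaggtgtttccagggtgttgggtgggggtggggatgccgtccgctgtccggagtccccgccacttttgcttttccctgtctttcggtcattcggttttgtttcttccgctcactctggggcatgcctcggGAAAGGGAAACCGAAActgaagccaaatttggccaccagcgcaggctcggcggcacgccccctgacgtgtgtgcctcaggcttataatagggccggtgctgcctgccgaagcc
IFI27 (chr14:94110486-94110735, plus strand): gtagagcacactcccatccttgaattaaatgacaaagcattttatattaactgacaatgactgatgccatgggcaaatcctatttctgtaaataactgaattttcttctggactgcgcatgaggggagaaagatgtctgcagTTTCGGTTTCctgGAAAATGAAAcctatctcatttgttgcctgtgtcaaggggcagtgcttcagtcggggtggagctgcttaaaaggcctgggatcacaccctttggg
HERC5 (chr4:88456869-88457118, plus strand): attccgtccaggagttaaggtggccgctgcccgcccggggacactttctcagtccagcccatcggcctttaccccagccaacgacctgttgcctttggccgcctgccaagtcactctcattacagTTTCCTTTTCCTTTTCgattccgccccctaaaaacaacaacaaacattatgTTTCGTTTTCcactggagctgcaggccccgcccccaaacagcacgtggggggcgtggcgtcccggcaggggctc
IFITM1 (chr11:313790-314039, plus strand): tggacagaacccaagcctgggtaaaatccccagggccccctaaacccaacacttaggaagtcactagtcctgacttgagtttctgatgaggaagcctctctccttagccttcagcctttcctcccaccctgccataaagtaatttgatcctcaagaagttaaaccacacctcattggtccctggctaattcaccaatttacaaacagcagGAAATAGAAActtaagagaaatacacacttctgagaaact
IFI6 (chr1:27672193-27672442, minus strand): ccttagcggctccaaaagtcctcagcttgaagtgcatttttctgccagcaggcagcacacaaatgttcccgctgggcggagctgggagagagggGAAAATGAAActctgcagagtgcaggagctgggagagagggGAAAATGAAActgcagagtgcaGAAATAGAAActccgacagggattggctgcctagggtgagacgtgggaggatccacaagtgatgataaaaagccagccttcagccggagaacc

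The nearest match ended 97 bases before the start in ISG15, 85 in IFI27, 64 in HERC5, 30 in IFITM1 and 83 in IFI6. Of 37 measured interferon-stimulated genes with a promoter in the table, 25 held a match (67.6%), against 537 of 15034 measured genes (3.57%) and 1061 of all 35116 promoters (3.02%). The share was 21 of 29 (72.4%) for the genes lower in MCF10A and 4 of 8 (50%) for those that were not. A match describes the sequence and is not a measured binding site.

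Antigen presentation by HLA class I had 11 of 21 genes lower and 2 higher, with a median of -0.68. These shares, 52.4% and 9.5%, compare with 18.3% and 19% of all genes. HLA-B measured 7.52, 7.53 and 7.59 in MCF10A, against 9.0, 9.68 and 9.79 in KLE, and its probe may read other class I genes. TAPBP, which loads peptides, was at 8.40, 8.35 and 8.40 in MCF10A and 9.40, 10.58 and 10.68 in KLE. The proteasome subunits PSMB8 (-0.94) and PSMB9 (-0.68) and the activators PSME1 (-0.70) and PSME2 (-1.46) were lower too. TAP1, the peptide transporter, was higher (0.45, adjusted p = 0.0097), a call lost with the 12 other KLE arrays (0.32, adjusted p = 0.243). Of 15 class II genes 1 was higher and 4 lower, and 6 were at background in both lines. CD74 was at background in MCF10A and differed by -0.85.

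NF-kB targets and cytokines were split, with 15 of 38 higher and 10 lower. IL1A, an interleukin of epithelial alarm, had levels of 10.90, 10.97 and 10.79 in MCF10A and 6.83, 6.87 and 6.78 in KLE, at least 14.4-fold higher in MCF10A. CXCL1 (2.19), IL1B (1.86) and CXCL2 (1.64) were higher as well. IL1R1, the receptor for IL1A and IL1B, was lower, at 7.0, 7.06 and 6.96 in MCF10A, against 9.98, 10.09 and 10.30 in KLE. CCL2, IL32 (-2.38) and TNFAIP2 (-1.57) were lower with it. The ligands of the interleukin 1 system were thus higher in MCF10A and its signalling receptor lower.

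Cancer/testis antigens are normally confined to germ cells, and many of them are coded on the X chromosome. They were lower in MCF10A in 36 of 62 cases (58.1%, against 18.3% of all genes), with 24 at background in both lines. By limma 0 were higher, and 0 at an unadjusted p under 0.05. MAGEC2 had levels of 6.80, 6.81 and 6.75 in MCF10A and 11.15, 11.36 and 11.40 in KLE, at least 19.2-fold lower in MCF10A. GAGE4 was at 6.85, 6.88 and 6.89 in MCF10A, against 9.86, 9.96 and 10.03 in KLE. MAGEC2 and GAGE4 were at background in every MCF10A array. GAGE12G (-2.98), SSX1 (-2.18), MAGEA12 (-1.37) and VCX2 (-1.42) were lower too. GAGE genes are near-identical copies, so their probes do not count as separate evidence. For GAGE4 the difference rests on the shCTRL arrays: over the 12 KLE arrays with other hairpins it ran from 6.80 to 8.19, and with those arrays the difference was -0.70. GAGE12G did likewise, with -0.71 against those arrays. MAGEC2 kept 10.58 to 11.64 there.

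By chromosome, differences of at least 2-fold were counted among the 12574 genes with a chromosome and above background in at least 1 line, of which 7.28% were higher and 7.34% lower. On chromosome X 8 of 474 genes were higher (1.69%) and 75 lower (15.8%). Chromosomes 19 (37 higher and 121 lower of 894), 14 (17 and 57 of 405) and 21 (6 and 20 of 134) leaned the same way. Chromosomes 13 (47 higher and 5 lower of 215), 8 (70 and 15 of 446) and 10 (75 and 22 of 495) leaned to MCF10A. The count for chromosome X includes cancer/testis antigens described above, of which 18 on any chromosome were at least 2-fold lower. How many of them fall in that count was not tallied, so chromosome X is not separate evidence from that list. DNA copy number was not analysed here.

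Of the mismatch repair genes that the series is about, MSH6 and the bright probe of MSH3 did not pass the test. MSH6 measured 10.67, 10.64 and 10.52 in MCF10A, against 11.12, 10.55 and 10.74 in KLE, and the arrays overlapped (difference -0.20, SE 0.140, adjusted p = 0.352). MSH3 had 13.52, 13.57 and 13.34 in MCF10A and 13.47, 13.88 and 14.02 in KLE by its bright probe (difference -0.31, SE 0.130, adjusted p = 0.109). Without KLE array 1 the MSH3 difference was -0.47 and passed the test (adjusted p = 0.00145), and its dim probe was lower by all arrays (-0.19). PMS2 was lower (-0.49, adjusted p = 0.00507), but a second probe was higher by 0.16. Of 15 measured mismatch repair genes 3 were higher and 2 lower (20% and 13.3%, against 19% and 18.3% of all genes). The largest difference was that of RPA2, a subunit of the single-strand binding protein (-1.51).

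Markers of cells that neither culture should hold were mostly at background. Of 17 leukocyte markers 12 were at background in both lines, among them PTPRC, CD3E and ITGAM. Their summed level was 3327 to 3387 in MCF10A and 2610.2 to 2761 in KLE. CD14, the receptor for bacterial lipopolysaccharide, stood out with 10.21, 10.14 and 10.16 in MCF10A, against 7.12, 6.85 and 6.86 in KLE. CORO1A was lower (-1.80). Of 14 endothelial markers 10 were at background in both lines and TEK was lower (-1.29), with a summed level of 1661 to 1677 in MCF10A and 1833 to 1876 in KLE. Of 16 intestinal markers 13 were at background in both lines, and CEACAM6 was higher (1.46). In bulk samples such as these, fewer cells that express a gene and less RNA per cell cannot be told apart.

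Imprinted, fetal and methylation genes add a few single differences. Of 21 oncofetal genes 7 were lower and 2 higher, with PEG10, an imprinted gene derived from a retrotransposon, at -2.28 and HMGA2 at 0.43. Of 13 genes of DNA methylation 4 were higher and 4 lower. The maintenance methyltransferase DNMT1 was lower (-0.85), and UHRF1, which guides it to replicated DNA, was higher (0.83).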

How the data were processed

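Total RNA of 21 samples was hybridised to Illumina expression BeadChips, 1 array each. The deposited values are probe intensities on a linear scale, from GenomeStudio per the submitters' processing notes. Array medians of the deposited intensities ran from 87.7 to 122, and the deposited table shows no background subtraction or normalization between arrays. A genome build is not given in the sources used here.

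Values were transformed as log2(intensity + 16) and quantile-normalized over all 21 arrays. Of 47323 probes, 30113 carry 1 gene, 8 carry several and 17202 carry none in the platform annotation. No filter on dim probes was applied. MCF10A, KLE shCTRL and HCT116 control arrays (9 in all) entered 1 fit with limma 3.58.1 (lmFit and eBayes, two-sided) in R 4.3.3, with Benjamini-Hochberg adjustment over the 30113 probes. The probe brightest on average over the 9 arrays stood for its gene, and a median or count of a list covers its measured members. The background ceiling of 7.04 mirrors the lower tail of the common distribution about its mode of 6.84. Levels of different probes are not compared.

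Named are the 20 largest differences in each direction without overlap between the lines, up to 6 per direction in each of 43 gene lists, and 28 genes always, where measured. ABCC3, CD3E, DDB2, DUSP1, GCLC, GREM1, ID1, IFI44, IRF9, ITGAM, KLF5, KLF9, LDHA, MAGEA12, MDM2, PFKP, PSMB8, PSMB9, PSME1, PTPRC, SSX1, TFCP2L1, TNFRSF10B, VCX2, YAP1 and ZBTB16 were named after their values were seen. The lines compared, the lists and the genes were chosen with earlier results of these data known. Arrays with the same replicate number correlated in their deviations from the group means at 0.075, -0.208 and 0.194, so the numbers do not pair them. The fit was tested on simulated data, and 13 planned changes of the processing were tried. Probes without a gene were left out of the gene counts. Promoters come from RefSeq on GRCh38.p14 and were matched by symbol.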

Additional observations from a re-analysis of the deposited data

Results flagged for a closer look

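Probes that carry no gene in the annotation were outside the comparison of genes, and they held signal too. Of 17202 such probes, 938 were higher and 1006 lower in MCF10A past the same test, and 180 were at least 2-fold higher and 270 at least 2-fold lower. The largest positive one, ILMN_1801442, had a mean of 13.58 in MCF10A, against 6.88 in KLE, and the largest negative one, ILMN_1720695, had 6.87 in MCF10A, against 12.64 in KLE. What these probes read was not tested.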

How the results depend on the processing

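The number of genes past 2-fold depended on how background was handled. With normexp background correction 1742 genes were at least 2-fold higher and 1786 lower, against 915 and 925, while counts at the adjusted p alone stayed within 1.5 times. With values as deposited, without normalization between arrays, 2084 genes were higher and 1774 lower, against 3815 and 3665, and the 2-fold split moved to 1161 higher and 852 lower. Median scaling gave 1080 and 924 at 2-fold. Leaving out 1 array in turn gave 3296 to 4204 higher and 3040 to 4040 lower genes, and 873 to 1061 and 891 to 1035 at 2-fold. The replicate numbers do not pair the arrays, and a fit with the replicate block gave 3600 higher and 3436 lower genes (915 and 924 at 2-fold), fewer calls than without it. Of 422 named genes 414 passed the test, and 322 of these kept their direction and call under every setting. Sign changed with the mean of all probes for CD68 (0.19, against -0.43) and ZMAT3 (0.74, against -1.16), where probes of 1 gene disagree. With the 12 KLE arrays that carry MSH3 or MSH6 hairpins it changed for MSH6 (0.55), SREBF1 (0.10) and SERPINB1 (-0.041). MSH6 is a target of part of these hairpins, while MSH3, the other target, kept its sign (-0.27, against -0.31). The cause of these changes was not tested. Those arrays also moved LAMB3 to 3.51, KRT16 to 3.97, IGFBP6 to 1.54 and PLAT to 0.48. PKM missed the threshold under 9 of the 18 settings and NDUFA3 under 7. List medians kept their sign under the 18 settings for interferon-stimulated genes (-1.38 to -0.66), p53 targets (0.71 to 1.03), glucocorticoid-responsive genes (0.86 to 1.83), BMP genes (-0.89 to -0.42) and cancer/testis antigens (-1.01 to -0.14). Medians near 0, such as those of cornified envelope, HOX and basal keratin genes, changed sign. Dim genes are limited by signal over background.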
